A study of Mus musculus with 18 samples.

Results

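The expression changes described here are those of control ESD3 cells between the spherical neural mass (SNM) stage and the final neuronal stage, 14 days later in the differentiation protocol, in cells with no HPRT knockdown. The comparison used the 6 arrays of control cells at these stages, out of 18 in the series, with 3 arrays at each stage. A probe was included when its detection p-value was under 0.05 on all 3 arrays of either stage, which held for 20697 of 45281 probes, representing 14646 of 30945 gene symbols. ESD3 is a mouse embryonic stem (ES) cell line of strain 129s2/SvPas, kept on mouse embryo fibroblast feeders. The control cells carried a virally delivered shRNA against luciferase, and the knockdown cells of the same series carried one against HPRT, so both had been transduced and selected. ES cells were expanded as SNMs and then differentiated with a protocol meant for dopaminergic neurons. The RNA on the 3 arrays of a stage came from 1 pool of replicate cultures. Variation between cultures is thus averaged within the pool, and SDs, standard errors (SE) and p-values refer to repeated arrays of that pool.

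An SNM is a floating aggregate of neural precursors that can be expanded before the cells are allowed to settle and mature. During maturation, neural precursors normally leave the cell cycle, silence stem cell regulators and build axons, synapses and excitable membranes. The same pluripotent cells can also enter mesodermal fates, among them skeletal muscle, in which the myogenic factors of the MyoD family switch on the contractile apparatus, and connective tissue. In a mixed culture, a fall in the signal of a gene can mean fewer cells of a type or less RNA per cell, and the arrays cannot tell these apart.

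Each array detected between 20090 and 21491 probes in SNMs and between 21179 and 22161 after differentiation. Arrays of 1 stage correlated across probes between 0.992 and 0.997, and arrays of different stages between 0.960 and 0.967. On the log2 scale, a probe's median SD was 0.110 among SNM arrays and 0.102 among neuronal arrays. All levels below are log2 normalised signals, and all changes are differences of these, neuronal stage minus SNM. A gene was called as rising or falling when its change reached 1.5-fold with a p-value from limma under 0.05 after Benjamini-Hochberg adjustment. By this rule 14.3% of tested probes rose and 15.1% fell, 29.4% in all, whereas the adjusted p-value alone would have passed 61.6%. Of the called probes, 6033 had no overlap between the arrays of the stages, against 65.2% of all tested probes. The changes were lopsided in size. Among probes that changed at least 4-fold, 397 rose and 57 fell, and at least 16-fold, 83 rose and 0 fell. A gene not detected on all 3 arrays of a stage has only a lower bound for its fold change, written as at least so many fold. For genes with more than 1 probe, the brightest is given.

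Hprt, the purine salvage enzyme targeted in the knockdown cells, was first examined to check the labels. Its signal in control cells was 11.23, 11.23 and 11.13 on the SNM arrays and 11.08, 11.03 and 11.03 on the neuronal arrays. The neuronal arrays were all slightly lower, but the change of -0.15 (SE 0.08) did not pass (adjusted p = 0.108 from limma), and none of its 3 probes was called. In knockdown cells the mean signal was 9.44 in SNMs and 6.60 on the neuronal arrays, below the control means at both.

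The stage labels were then set against markers of the cells they name. Stmn2, which encodes a growth cone microtubule regulator, rose by 1.04 and Dcx, which encodes the migration protein doublecortin, by 0.84, whereas Map2 changed by 0.27 and was not called. The probe for Tubb3, the neuronal tubulin, averaged 5.04 and 5.06, near the lowest detected signals, and its sign differed between processing settings. Snap25 and the dopamine transporter gene Slc6a3 were detected on 0 of 6 arrays, and Th, the rate-limiting enzyme of dopamine synthesis, on 1 of 3 neuronal arrays and 0 of 3 SNM arrays. The ES cell genes were still measurable: Pou5f1 averaged 9.95 in SNMs and 9.24 on the neuronal arrays, against 12.31 in ES cells. Among the neuronal markers the label was therefore met by some and not by others. Signals of the defining dopaminergic markers Th and Slc6a3 were at or near background. Each of these has 1 probe, so absent RNA and a probe that does not report it cannot be told apart. The paper, by flow cytometry, found TH protein in nearly all differentiated control cells. By qPCR it reported rises of β-III tubulin and the dopamine transporter in control cells, and it called its TH transcript results inconsistent.

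**Figure D1:**
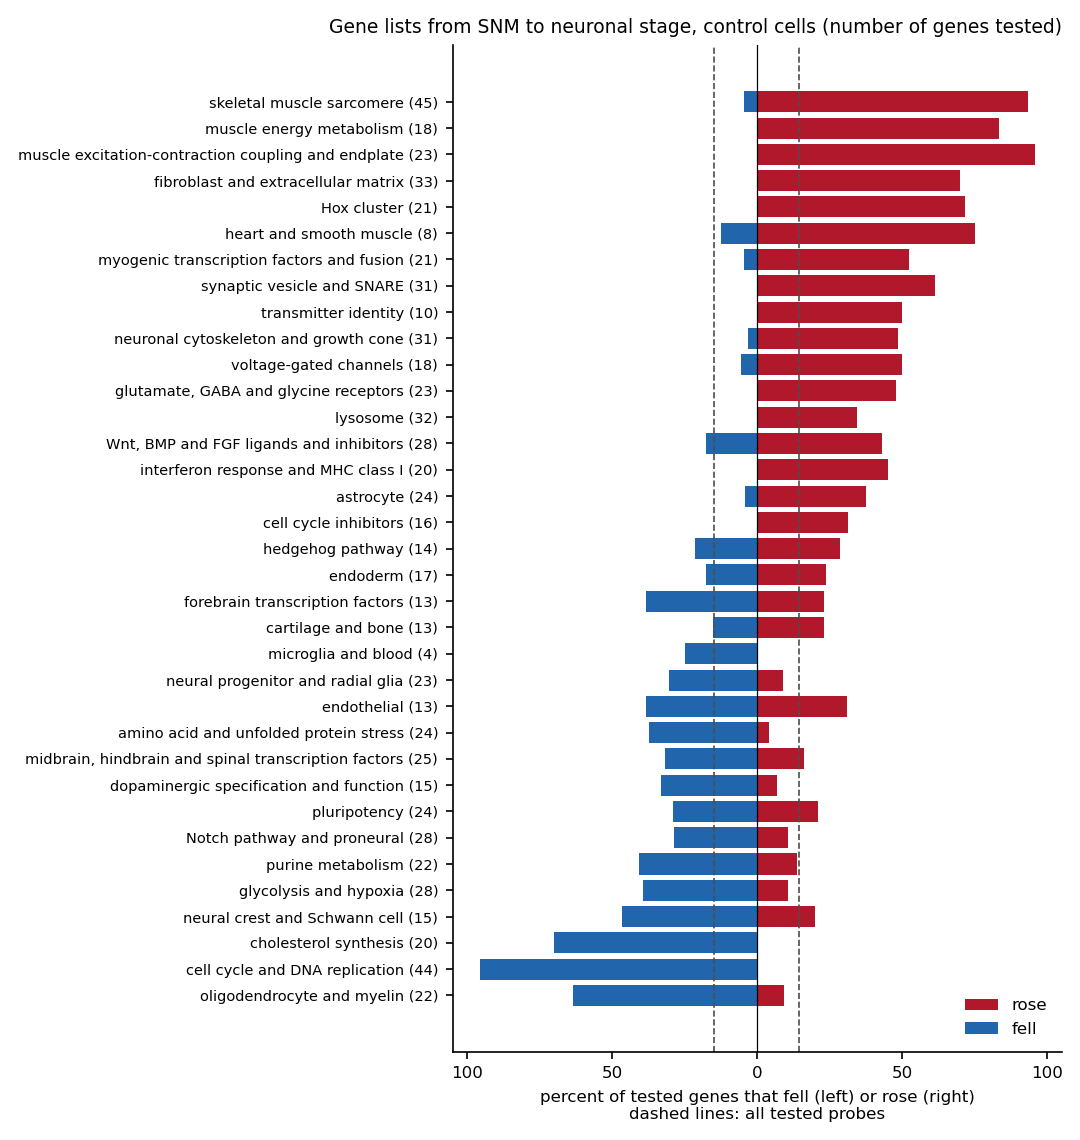
Share of the tested genes of 35 gene lists that rose (red, right) or fell (blue, left) in control cells between the stages, in percent, with the number tested in parentheses and the lists ordered by their median change. Dashed lines mark the shares over all tested probes, 14.3% and 15.1%. The lists of sarcomere, muscle energy metabolism and excitation-contraction coupling genes stand at the top with up to 95.7% of genes rising, and cell cycle and oligodendrocyte genes at the bottom. Some of the muscle genes were tested only because the neuronal arrays detected them.

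Skeletal muscle genes made up most of the probes with the largest rises. Of 107 genes tested on 4 muscle lists, 90 rose (84.1%) and 3 fell, and 52 of the 83 probes that rose at least 16-fold belonged to genes of these lists (62.7%). Sarcomere genes, which encode the thick and thin filaments and the discs that anchor them, had a median change of 4.29 over 45 tested genes, beside -0.07 over all tested probes, with 42 rising and 2 falling. Genes of excitation-contraction coupling and the endplate had a median of 2.48, with 22 of 23 rising. Genes of muscle energy metabolism had a median of 3.05, with 15 of 18 rising. All 3 SNM arrays detected 25 of the sarcomere genes, 9 of the coupling and endplate genes and 14 of the energy genes. All 3 neuronal arrays detected 44, 23 and 18. A gene tested only because the neuronal arrays detected it could hardly fall, so the shares of these muscle lists lean towards rises. Signal summed over the sarcomere list ranged from 8591 to 8671 on the SNM arrays and from 161952 to 164831 on the neuronal arrays.

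Because so many muscle genes rose together, their promoters were searched for an E-box of the sequence CAGCTG, a form bound by myogenic factors of the MyoD family. In the 250 bases upstream of the start in the RefSeq table (build GRCm38.p6, both strands), 23 of 61 muscle-list genes that rose and had an entry held it (37.7%), against 12.8% of all 27025 promoters. The match is a description of letters and shows no binding. The promoters of 4 of these genes are shown 5′ to 3′ on the gene's strand with the E-box in capitals. They were picked by size of rise among the genes that hold the E-box, so they only illustrate it.
Atp2a1, chr7:126463074-126463323, minus strand: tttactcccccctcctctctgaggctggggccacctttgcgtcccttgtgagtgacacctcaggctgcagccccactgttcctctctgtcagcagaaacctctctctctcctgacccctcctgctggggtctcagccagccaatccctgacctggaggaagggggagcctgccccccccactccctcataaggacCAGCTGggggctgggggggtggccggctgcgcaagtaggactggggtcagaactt
Chrng, chr1:87205561-87205810, plus strand: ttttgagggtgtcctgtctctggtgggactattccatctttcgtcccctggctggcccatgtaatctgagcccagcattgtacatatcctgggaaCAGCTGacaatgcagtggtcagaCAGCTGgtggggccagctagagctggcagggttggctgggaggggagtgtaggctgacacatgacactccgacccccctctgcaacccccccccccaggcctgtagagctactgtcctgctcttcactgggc
Myh4, chr11:67237562-67237811, plus strand: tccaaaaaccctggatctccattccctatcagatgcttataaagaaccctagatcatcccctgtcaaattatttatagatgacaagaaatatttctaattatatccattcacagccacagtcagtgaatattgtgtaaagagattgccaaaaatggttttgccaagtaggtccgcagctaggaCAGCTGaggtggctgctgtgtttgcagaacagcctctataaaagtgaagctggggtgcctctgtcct
Cox8b, chr7:140900447-140900696, minus strand: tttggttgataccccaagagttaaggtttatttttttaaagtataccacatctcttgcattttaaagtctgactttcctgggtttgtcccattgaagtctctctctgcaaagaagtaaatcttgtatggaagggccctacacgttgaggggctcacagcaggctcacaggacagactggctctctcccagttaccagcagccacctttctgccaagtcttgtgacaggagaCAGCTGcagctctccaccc

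Among thin filament genes, Tnnc2, the calcium-binding troponin C of fast fibres, had signals of 6.69, 6.50 and 6.28 on the SNM arrays and 13.35, 13.29 and 13.27 on the neuronal arrays. Every neuronal array lay far above every SNM array. The change was 6.81 (SE 0.19, adjusted p = 4.43e-14 from limma), or 112-fold. Its partners in the fast troponin complex, Tnni2 and Tnnt3, rose by 6.65 and 5.91. Acta1, the skeletal actin, went from 9.16, 9.24 and 9.35 to 14.35, 14.39 and 14.42, a change of 5.14 (SE 0.17). It was thus already detected on all 3 SNM arrays.

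Several myosin heavy chains rose. Myh8, the perinatal form, measured 7.10, 6.97 and 6.78 in SNMs and 13.38, 13.44 and 13.38 at the neuronal stage, a change of 6.45 (SE 0.15). Myh3, the embryonic form, rose by 5.59. The adult fast forms Myh1 and Myh4 were detected on 0 of 3 SNM arrays and rose at least 50.7-fold and at least 44.2-fold, whereas Myh7, the slow form shared with heart, was detected on no array of either stage. Myosin heavy chain genes are similar in sequence, and the share of a probe's signal that comes from a paralog is not known. The scaffolds followed: the titin cap gene Tcap rose by 6.16, the M-band gene Myom2 at least 72.8-fold (2 of 3 SNM arrays detected), and the titin gene Ttn at least 23.9-fold, with 6 of 7 tested probes rising.

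The sarcomere genes that fell were exceptions in kind. Tpm3, a tropomyosin also made in non-muscle cells, fell by 0.91 for its brightest probe, while its other 3 probes rose and the mean over its probes was 1.73. Myl3, a light chain of slow muscle and heart, fell at least 1.60-fold, and its change shrank to -0.55 without SNM array 1 and to -0.58 without neuronal array 2, below 1.5-fold.

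Of the genes that couple excitation to contraction, Sln, which encodes the calcium pump regulator sarcolipin, rose at least 108-fold and was detected on 1 of 3 SNM arrays. Atp2a1, the fast calcium pump whose promoter is shown above, rose from 5.92, 5.89 and 5.65 to 12.27, 12.29 and 12.27, a change of 6.46 (SE 0.12, adjusted p = 3.46e-16 from limma). The acetylcholine receptor gene Chrng, which encodes the fetal gamma subunit, went from 5.56, 5.62 and 5.28 to 11.38, 11.31 and 11.33. These groups did not overlap and differed by 5.85. The alpha subunit gene Chrna1 rose by 5.70, while Chrne, the adult epsilon subunit, changed by 0.51 and was not called.

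Genes for muscle energy supply rose to a like extent. Mb, which encodes the oxygen store myoglobin, rose by 5.78, Cox8b, a muscle subunit of cytochrome oxidase, by 5.77, and Pgam2, the muscle phosphoglycerate mutase, by 5.68. Ckm, the muscle creatine kinase, was detected on no SNM array (4.22, 4.27 and 4.22) and on every neuronal array (10.01, 9.84 and 9.72), at least 34.2-fold higher.

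Myogenic factors and fusion genes had a smaller median change. On the list of myogenic transcription factors and fusion genes, 11 of 21 rose and 1 fell, with a median of 0.81. Myog, which encodes the differentiation factor myogenin, measured 5.47, 4.71 and 4.64 in SNMs, where 1 of 3 arrays detected it, and 8.98, 8.86 and 8.85 at the neuronal stage. It was therefore at least 15.2-fold higher. Myf6, a late myogenic factor, rose at least 11.1-fold, Mymk, which encodes the myoblast fusion protein myomaker, at least 9.39-fold, and Cdh15, the muscle cadherin, at least 9.67-fold. Myod1 was detected on 0 of 3 SNM arrays and all 3 neuronal arrays but changed by 0.50 and was not called. Pax3, a factor of early muscle and neural crest precursors, fell, by at least 1.43-fold, and was detected on no neuronal array. Of the 90 muscle genes that rose, 27 were detected on no SNM array and 48 on all 3.

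Heart and smooth muscle genes were fewer and mixed. Of 8 tested, 6 rose and 1 fell. All 3 SNM arrays detected 4 of these genes and all 3 neuronal arrays 7, so this count also leans towards rises. Ankrd1, a stress-responsive muscle nuclear protein gene, rose by 5.70, and Acta2, the smooth muscle actin that myofibroblasts and young muscle also make, went from 9.22, 9.10 and 9.12 to 13.69, 13.79 and 13.70, a change of 4.58 (SE 0.05). The enteric actin gene Actg2 rose at least 17.6-fold. The defining smooth muscle genes Myh11 and Cnn1 and the atrial peptide gene Nppa were detected on no array, and the atrial light chain gene Myl7 fell at least 2.76-fold.

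**Figure D2:**
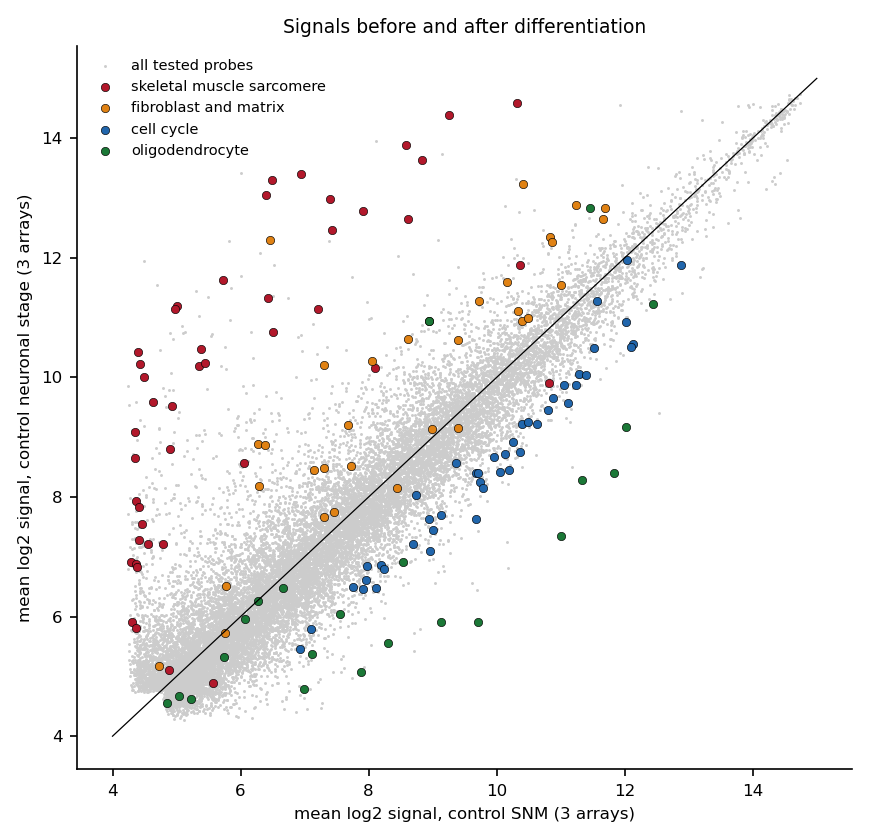
Mean log2 signal of every tested probe (grey) on the 3 SNM arrays (horizontal) and the 3 neuronal arrays (vertical) of control cells, with the genes of 4 lists coloured and the line of equal signal. Most sarcomere genes (red) lie far above the line, fibroblast and matrix genes (orange) above it, and oligodendrocyte (green) and cell cycle genes (blue) mostly below it.

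Connective tissue genes rose as a group. Of 33 tested fibroblast and extracellular matrix genes, 23 rose and 0 fell (median 1.24). The summed signal of the list ranged from 26581 to 28083 on the SNM arrays and from 71500 to 75636 on the neuronal arrays. Ogn, which encodes the small matrix proteoglycan osteoglycin, had the greatest rise, from 6.25, 6.56 and 6.56 to 12.25, 12.25 and 12.40, a change of 5.84 (SE 0.13). The type I collagen gene Col1a1 went from 7.53, 7.18 and 7.19 to 10.24, 10.17 and 10.19 and rose by 2.90 (SE 0.15). The groups of both genes were well separated. Dcn, the proteoglycan decorin, rose by 2.81 and Fap, a surface protease of activated fibroblasts, by 2.61. ES cells were grown on fibroblast feeders, and a contribution of feeder cells was not tested directly. Of the 35 genes of this list, 22 were detected on all 3 control ES arrays, among them Dcn with a mean of 7.41, whereas Col1a1 and Lum, a corneal and fibroblast proteoglycan, were detected on 0 of 3.

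Hox genes, which mark position along the body axis in neural and mesodermal tissue alike, mostly rose where they could be tested. Of 39 genes, 18 were not tested. Of 21 tested, 15 rose and 0 fell, with a median of 1.06. All 3 SNM arrays detected 15 genes and all 3 neuronal arrays 19. A gene that was tested only because the neuronal arrays detected it could hardly fall, so these counts lean towards rises. Hoxb5 was detected on no SNM array (4.58, 4.46 and 4.44) and on all neuronal arrays (9.12, 9.18 and 9.28), at least 21.6-fold higher. Hoxb4 rose at least 7.76-fold and Hoxb3 at least 4.68-fold. Hoxd8 rose by 2.78, from 6.31, 6.19 and 6.11 to 8.92, 9.03 and 8.99. The rises lay in paralog numbers 1 to 9, where 15 of 17 tested genes rose, whereas 0 of 4 tested genes of paralog numbers 10 to 13 did, a division made after the values were seen.

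**Figure D3:**
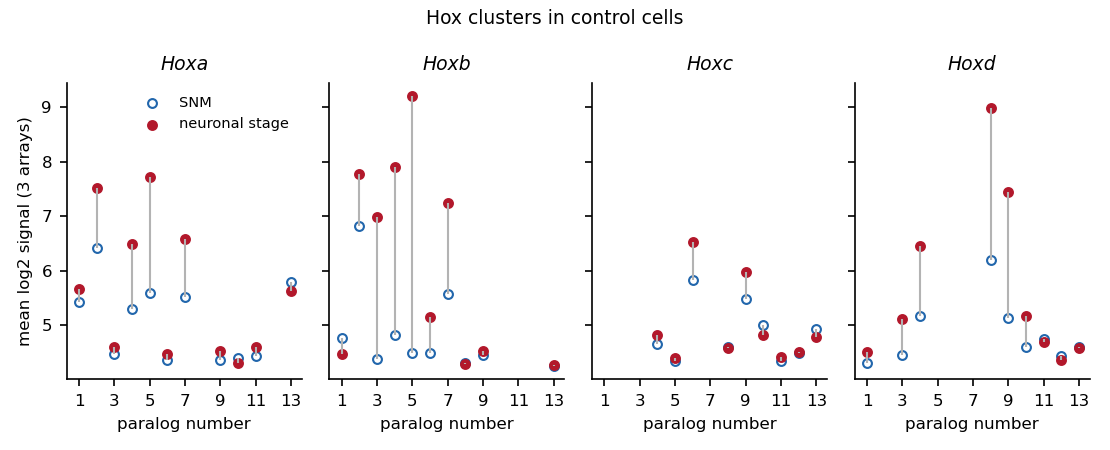
Mean log2 signal of Hox genes of the 4 clusters in control SNMs (open blue) and at the neuronal stage (red), each over 3 arrays, against paralog number, with a grey line joining the stages. Long lines belong to middle paralogs such as Hoxb5 and Hoxd8, while paralogs 10 to 13 at the right of each panel differ little between the stages.

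Neuronal genes rose more modestly than muscle genes. On the list of neuronal cytoskeleton and growth cone genes, 15 of 31 rose and 1 fell (median 0.66), and on the list of synaptic vesicle and SNARE genes 19 of 31 rose and 0 fell (median 0.75). Rbfox3, the gene of the neuronal nuclear antigen NeuN, went from 6.55, 6.99 and 7.10 to 8.71, 9.37 and 9.25, a change of 2.23 (SE 0.19, adjusted p = 3.46e-08 from limma). All neuronal arrays were above all SNM arrays, although the arrays within a stage spread more than for the muscle genes. Mapt, which encodes tau, rose by 2.11 and Thy1, a surface glycoprotein of neurons and fibroblasts, by 2.05. The gene that fell was Nefm, the medium neurofilament subunit, from 9.45, 9.45 and 9.43 to 7.45, 7.22 and 7.25, a change of -2.14 (SE 0.09). The vesicle genes Scg2, Syn1 and Sv2b rose by 1.62, by 1.58 and at least 2.93-fold.

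Transmitter genes that rose served several transmitters. Of 10 tested transmitter identity genes, 5 rose and 0 fell. Gad1, which makes GABA, measured 7.68, 7.74 and 7.83 in SNMs and 9.41, 9.52 and 9.43 at the neuronal stage and rose by 1.71 (SE 0.07). Slc32a1, the vesicular transporter of GABA and glycine, rose by 1.52, Slc17a8, a vesicular glutamate transporter gene, by 1.42, and Tph2, the serotonin-synthesis enzyme of neurons, at least 1.94-fold. Of 23 receptor subunits, 11 rose and 0 fell, led by the glycine receptor gene Glra2, which went from 5.59, 5.50 and 5.47 to 7.78, 7.91 and 7.71. The glutamate receptor gene Gria1 rose by 1.88. Of 18 voltage-gated channel genes, 9 rose and 1 fell. The sodium channel subunit gene Scn3b rose by 2.48, while the inward rectifier gene Kcnj3 fell at least 1.95-fold.

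Genes of the dopaminergic lineage did not share this direction. Of 15 tested, 1 rose and 5 fell (median -0.25). Ddc, the decarboxylase shared by dopamine and serotonin synthesis, rose by 1.02 and is also among the transmitter identity genes that rose. Otx2, a forebrain and midbrain identity factor, went from 9.92, 10.28 and 10.45 to 8.11, 8.70 and 8.78, a change of -1.69 (SE 0.20). En2, a midbrain factor, fell by 1.32 on the log2 scale, whereas En1 changed by -0.14 and was not called. Nr4a2, a maturation factor of these neurons, was called as falling, from 5.44, 5.88 and 6.60 to 4.93, 5.09 and 5.25, but SNM array 3 stood above its fellows and without it the change of -0.57 was below 1.5-fold.

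Precursor regulators mostly fell or did not pass. Of 23 neural progenitor and radial glia genes, 2 rose and 7 fell, and of 28 Notch pathway and proneural genes, 3 rose and 8 fell (medians -0.19 and -0.40). Insm1, a factor of dividing neuronal precursors, fell from 9.64, 9.57 and 9.47 to 7.90, 7.84 and 7.88, a change of -1.69. Sox21 and the Notch target Hes5 changed by -1.26 and -1.11, and the proneural gene Neurod4 by -2.01. The Notch modifier gene Mfng and the feedback inhibitor gene Nrarp changed by -1.73 and -1.59, whereas Dner, a Notch ligand-like protein gene of neurons, rose by 1.51. Nes, the intermediate filament gene nestin, which young muscle also makes, rose by 1.25. Sox2 changed by -0.64 and was called, but its change was -0.58 without SNM array 3 and also without neuronal array 1, below 1.5-fold. Sox1 was detected on no array.

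Regional factors moved in both directions. Of 13 forebrain factors 3 rose and 5 fell, and of 25 midbrain, hindbrain and spinal factors 4 rose and 8 fell. Bcl11b, a cortical and striatal factor, rose by 1.60. Gata2 and Gata3, selectors of inhibitory neurons, rose by 1.17 and 1.09. Ptf1a, a factor of dorsal inhibitory precursors, was detected on no neuronal array and fell at least 3.91-fold, and the ventricular zone factor Dbx1 changed by -1.48.

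Oligodendrocyte genes made up 5 of the 10 largest falls. Of 22 tested oligodendrocyte and myelin genes, 14 fell and 2 rose, with a median of -1.57. The signal summed over the list ranged from 24300 to 24870 on the SNM arrays and from 13786 to 14424 on the neuronal arrays. Gpr17, a receptor of oligodendrocyte precursors, fell from 9.89, 9.75 and 9.47 to 6.10, 5.83 and 5.82, a change of -3.79 (SE 0.10, adjusted p = 2.4e-14 from limma). Mag, a myelin-associated adhesion protein gene, went from 9.14, 9.18 and 9.06 to 5.94, 5.85 and 5.93, a change of -3.22. In both genes every neuronal array lay below every SNM array. The lineage factor gene Sox10 changed by -3.65 and the myelin gene Mbp by -3.43, with all 5 tested Mbp probes falling. Pdgfra, a receptor of oligodendrocyte precursors that fibroblasts also carry, rose from 8.91, 8.99 and 8.93 to 10.81, 11.10 and 10.94, and Cldn11, a tight junction gene of myelin, rose by 1.39.

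Astrocyte genes rose more often than they fell, 9 against 1 of 24 tested (median 0.40). Dio2, the deiodinase that activates thyroid hormone, measured 5.53, 5.35 and 5.32 in SNMs and 8.98, 8.94 and 8.91 at the neuronal stage, a change of 3.54 (SE 0.08). The connexin gene Gjb6 rose by 1.72 and Nfib, a gliogenic factor gene, by 1.71. Of other astrocyte markers, Aldh1l1 rose by 0.90, while Slc1a2 changed by -0.55 and Gja1 by -0.40 without being called, and Slc1a3 by 0.07. Gfap changed by 0.42 and Aqp4 by 0.59, and neither was called, although Aqp4 was when SNM array 3 or neuronal array 1 was left out (0.91 in both cases). The gene that fell was S100b, which oligodendrocyte precursors share, with a change of -2.37. On the neural crest and Schwann cell list, 7 of 15 fell and 3 rose. Snai1, a factor of mesenchymal transition, rose by 1.65, Pou3f1 changed by -1.61, and the crest factor gene Foxd3 was detected on no array.

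**Figure D4:**
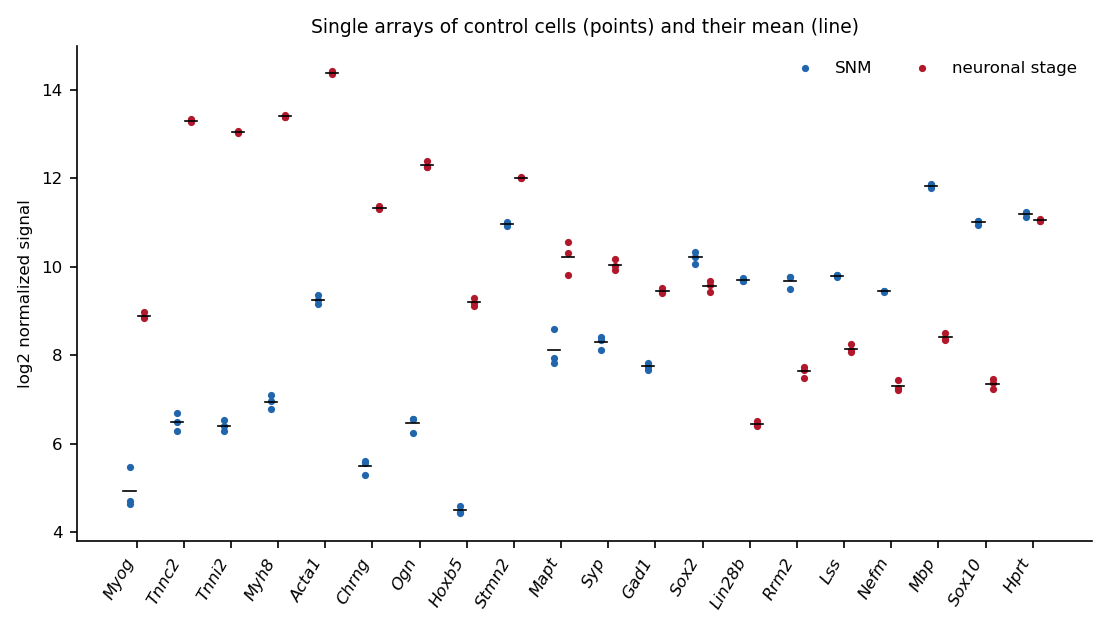
Log2 normalised signal of 20 genes on each of the 3 SNM arrays (blue points) and 3 neuronal arrays (red points) of control cells, with short black lines for the means. Arrays of a stage lie close together, and muscle genes at the left move furthest, for example Tnnc2 from under 7 to above 13, while Hprt at the right differs by 0.15.

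Cell cycle and DNA replication genes fell almost throughout. Of 44 tested, 42 fell and 0 rose, with a median of -1.35. Rrm2, the small subunit of ribonucleotide reductase, went from 9.76, 9.76 and 9.49 to 7.67, 7.74 and 7.49, a change of -2.04 (SE 0.09, adjusted p = 2.41e-11 from limma). Cdc6 and Mcm10, which load and start the replicative helicase, changed by -1.86 and -1.73, and Mcm3, a helicase subunit, by -1.65. The 2 that were not called were both D cyclins, Ccnd1 (-0.08) and Ccnd2 (-0.28), named after their values were seen. Of 16 cell cycle inhibitors 5 rose and 0 fell, and Cdkn2b, which blocks the D cyclin kinases, rose from 8.22, 8.29 and 8.22 to 9.79, 9.80 and 9.91, a change of 1.59. The CHR element TTTGAA, a cell cycle promoter motif, was present in the upstream 250 bases of 8 of 35 of the falling genes that had an entry (22.9%), beside 16.3% of all promoters.

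Pluripotency genes were split. Of 24 tested, 5 rose and 7 fell (median -0.30). Lin28a, which blocks maturation of let-7 microRNAs, changed by -2.41. Its relative Lin28b, which is not on the list and is among the 10 largest falls, fell from 9.74, 9.68 and 9.67 to 6.50, 6.43 and 6.41, a change of -3.25 (SE 0.06). The stem cell ubiquitin ligase gene Trim71, itself a let-7 target, changed by -2.04. Pou5f1 changed by -0.72 and was called, with 1 of its 2 probes passing. Nanog (10.59 to 10.35 on average) and Zfp42 (9.29 to 8.93) were not called, and Klf5 rose by 1.18.

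Metabolic lists moved with distinct signs. All 14 of 20 cholesterol synthesis genes that passed fell (median -0.74). Lss, which closes the sterol ring, went from 9.76, 9.82 and 9.82 to 8.07, 8.26 and 8.11, a change of -1.65. The sterol element TCACNCCAC was found in 0 of 10 of these promoters and in 1.04% of all, which says only that these letters are not in this window. Of 28 glycolysis and hypoxia genes 11 fell and 3 rose, with the stress-induced gene Ddit4 at -1.59 and the neuronal enolase gene Eno2 at 1.37. Of 24 genes of amino acid and unfolded protein stress 9 fell and 1 rose, with the folate enzyme gene Mthfd2 at -1.31 and the glutathione-degrading enzyme gene Chac1 at -1.17. Of 32 lysosome genes, by contrast, 11 rose and 0 fell, with the protease genes Ctsa and Lgmn at 1.25 and 1.20. Of 20 interferon response and MHC class I genes 9 rose and 0 fell, with Ifi27 at 1.66 and Oasl2 at 1.47.

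Purine genes, the pathway that HPRT belongs to, were followed in these control cells as well. Of 22 tested, 3 rose and 9 fell (median -0.44). The 3 that rose were Ampd1, Adssl1 and Ampd3, and the first pair are muscle forms of the purine nucleotide cycle that also stand on the muscle energy list. Ampd1 was detected on 1 of 3 SNM arrays and rose at least 15.7-fold, and Adssl1 rose by 2.43 (SE 0.07). Those that fell included the de novo synthesis genes Gart (-1.12), Pfas (-1.03) and Gmps (-1.08).

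Secreted growth factors were followed next. Of 28 tested ligands and inhibitors of the Wnt, BMP, FGF and related families, 12 rose and 5 fell (median 0.47). Igf2, the fetal growth factor, went from 11.91, 11.97 and 11.91 to 14.55, 14.57 and 14.55, a change of 2.63 (SE 0.06), and Igf1 rose from 6.43, 6.36 and 6.65 to 9.31, 9.52 and 9.40. No array of either gene overlapped between the stages. Tgfb3 rose by 2.20 and Dkk3, a secreted Wnt modulator, by 1.72, whereas Fgf15, a factor of the early neural tube, changed by -2.05. Of 14 hedgehog pathway genes 4 rose and 3 fell. The coreceptor gene Cdon rose by 1.63, and Nkx2-2, a ventral target factor gene, changed by -1.51. Shh itself was called at 0.65, but its change of 0.56 without SNM array 3 was below 1.5-fold.

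Markers of other cell types were checked for completeness. Of 13 endothelial genes 4 rose and 5 fell. The endothelial sialomucin gene Emcn rose by 3.04 and the cadherin gene Cdh5 by 1.90, while the tight junction gene Cldn5 fell at least 4.54-fold and Pecam1 was not tested. Of 13 cartilage and bone genes 3 rose and 2 fell, led by Matn4 at 1.74. Of 17 endoderm genes 4 rose and 3 fell, with Amn at 1.12 and Cdh1 at -1.94. Among the endoderm markers, Ttr rose by 0.77, Foxa2 was detected on 2 of 3 arrays of each stage, and Afp and Alb were detected on no array. Of 4 testable microglia and blood genes 0 rose and 1 fell, the lysosomal membrane gene Laptm5 at -1.39, and Hba-a1 was detected on no array.

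A few of the extreme genes belonged to no list. Inmt, an enzyme that methylates tryptamine and related amines, had the greatest rise of all by the naming rule. Its signal was 4.36, 4.65 and 4.48 on the SNM arrays, none of which detected it, and 11.99, 11.94 and 11.90 on the neuronal arrays, at least 145-fold higher. The falls included Spink1, a trypsin inhibitor gene listed on the array as Spink3 (-3.36), Greb1, a gene known as a target of oestrogen receptor (-3.29), Trh, the precursor gene of thyrotropin-releasing hormone (-3.13), and Lims2, a focal adhesion adaptor gene (-3.05).

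The same step was also measured in the knockdown cells, and the change in control cells minus the change in knockdown cells was tested in the same model. Over 22160 probes tested, 14.8% had a higher change in control cells and 13.7% a lower one. Among probes already called in control cells these shares were larger. The difference contains the same control change on which these probes were called, so larger shares follow in part from that choice. Of all 2965 probes that rose, 1864 also had a higher change, and of all 3123 that fell, 940 a lower one. Of the 90 muscle genes that rose, 88 had a higher change in control cells, and the median change of the sarcomere list was 4.29 in control and -0.39 in knockdown cells. Tnnc2 averaged 7.97 in knockdown SNMs, above the control mean of 6.49, and 4.74 at the knockdown neuronal stage, where 1 of 3 arrays detected it. The fitted difference of its changes was 10.05 (SE 0.27, adjusted p = 3.5e-14 from limma), which is not exact because it rests in part on background signal. The 14 oligodendrocyte genes that fell in control cells all had a lower change there, with list medians of -1.57 in control and 3.31 in knockdown cells. Opalin, a myelin membrane protein gene, averaged 6.99 and 4.79 in control cells and 4.64 and 11.93 in knockdown cells. It was detected on 2 of 3 control neuronal arrays and 1 of 3 knockdown SNM arrays, so the fitted difference of -9.49 is likewise not exact. Mag, detected on every array of these 4 conditions, had a difference of -8.79.

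Other lists were set side by side in the same way, and their counts are to be read beside those given above for all called probes. Of the 42 cell cycle genes that fell, 38 did not pass the test of the difference, and the list medians were -1.35 and -1.55. Of the 15 Hox genes that rose, 9 did not pass it, 5 had a higher change in control cells and Hoxa7 a lower one, with medians of 1.06 and 0.81. Of the 23 fibroblast genes that rose, 17 had a higher change in control cells (medians 1.24 and 0.40). Of the 15 neuronal cytoskeleton genes that rose, 12 had a higher change in control cells (medians 0.66 and -0.26). Of the 14 cholesterol genes that fell, 10 had a lower change in control cells (medians -0.74 and 0.01). Inmt rose strongly in both, with fitted log2 changes of 7.44 in control and 6.07 in knockdown cells, and was detected on no SNM array of either. Control and knockdown cells are each a single line with 1 RNA pool a stage, so an effect of the knockdown and the course of the separate cultures cannot be told apart.

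**Figure D5:**
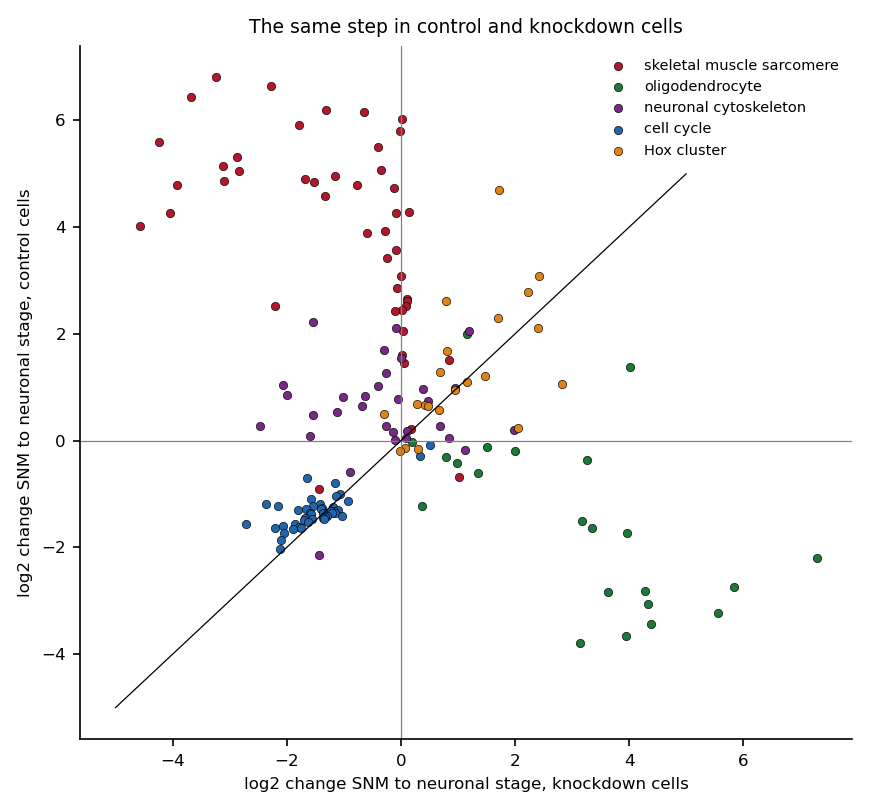
Log2 change between the stages in knockdown cells (horizontal) and control cells (vertical) for the tested genes of 5 lists, each point a gene, with the diagonal of equal change. Most sarcomere genes (red) lie at upper left or along the vertical axis, with medians of 4.29 in control and -0.39 in knockdown cells, the latter resting in part on background signal. Many oligodendrocyte genes (green) lie at lower right, neuronal cytoskeleton genes (purple) mostly left of the diagonal, and cell cycle (blue) and Hox genes (orange) nearest to it.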

How the data were processed

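The series has 18 arrays of the Illumina MouseWG-6 v2 platform, 3 for each of 3 stages in control and in HPRT-knockdown cells. The authors deposited, per the file headers, the signal intensity of each probe, with no normalization, and its detection p-value. These intensities were corrected against background estimated from the detection p-values, given an offset of 16, quantile-normalised and converted to log2 with the neqc function (limma 3.58.1, R 4.3.3). The offset compresses the changes of dim genes. A single limma model of 6 conditions gave the change from SNM to neuronal stage in control cells and its difference from that in knockdown cells, by two-sided tests. An exact permutation test of 3 against 3 arrays cannot give a p-value under 0.1. Where fewer than 3 arrays of a stage detected a probe, a fold was computed against the higher of the lowest detected signal and the probe's own. Symbols were updated through a RefSeq table for 30630 probes. The model was tested on simulated data.

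The genes named are Hprt, the 10 largest rises and falls, up to 4 genes each way of each of 35 lists, cell type markers and the 5 largest differences each way. These differences were ranked among probes called both in control cells and by the test of the difference. Some genes that this rule names are not reported here. The members and lists were chosen with earlier results of these data known. A second table holds 72 columns of per-sample values that could not be paired with samples, and only its probe annotation was used. Alternatives were other normalizations, detection filters, fold thresholds and tests, the array number as a block and leaving out each array.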

Additional observations from a re-analysis of the deposited data

Results flagged for a closer look

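For 10 genes the change in control cells differed from the change in knockdown cells by the test of the difference itself, and the fitted difference was among the 5 largest in its direction. Only probes also called between the stages in control cells were ranked, so genes not called there could not appear. The values are the fitted log2 change in control cells minus the log2 change in knockdown cells. On the side higher in control cells were the muscle genes Myh8 (10.12), Tnnc2 (10.05), Myh3 (9.83), Cox8b (9.61) and Sln (9.21), whose changes in knockdown cells were -3.67, -3.23, -4.25, -3.84 and -2.35. On the lower side were the oligodendrocyte genes Opalin (-9.49), Mag (-8.79), Enpp6 (-8.58), Mbp (-7.81) and Sox10 (-7.60), whose changes in knockdown cells were 7.29, 5.57, 5.84, 4.38 and 3.95. Several of these fitted values are not exact, since a gene was below background on some arrays. Cox8b and Sln were detected on 0 of 3, Tnnc2 on 1 of 3 and Myh3 on 2 of 3 knockdown neuronal arrays, Sln also on 1 of 3 control SNM arrays, and Opalin on 2 of 3 control neuronal and 1 of 3 knockdown SNM arrays. Their order among the other genes is therefore not settled. Myh8, Mag, Enpp6, Mbp and Sox10 were detected on every array compared. Control SNM arrays of Enpp6 spread from 7.74 to 9.05.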

How the results depend on the processing

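Of 209 named genes that were called, 163 kept the call under every setting that tested them with the same probe. The call was lost by 40 with a minimum change of 2-fold, 27 with quantile normalization and 26 with scaling to the 75th percentile, both without background correction, and 23 with an offset of 50. Without SNM array 3, 6 lost it. The main counts were 2965 probes that rose, 3123 that fell, 3287 with a higher and 3044 with a lower change in control than in knockdown cells. Quantile normalization without background correction gave 1952 that rose, 1829 that fell and 1792 lower. Scaling to the 75th percentile gave 1863 that rose and 2115 higher. An offset of 50 gave 2028 that fell and 1981 lower. In each of these 3 settings 1 sarcomere gene fell instead of 2. A minimum of 2-fold gave 1506 that rose, 979 that fell, 8 cytoskeleton genes that rose and 0 sarcomere genes that fell, and the share of rises among called probes went from 48.7% to 60.6%. With no minimum change, 5568 rose and 7181 fell, with 2 cytoskeleton genes falling. Requiring detection on all 6 arrays left 22 rising sarcomere genes and 1 falling, since genes detected at 1 stage only were then not tested. The methods' t-test gave 2916 that rose and 3007 that fell unadjusted, and 2851 and 2928 after Benjamini-Hochberg adjustment.

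Leaving out 1 array gave 2953 to 3029 rises, 3099 to 3225 falls, 3215 to 3333 higher, 2991 to 3142 lower, and 1 to 2 falling genes on both the cytoskeleton and the sarcomere list, where 42 rose throughout. The array numbers are those of the sample titles, since the descriptions give every sample the same number. They did not pair the samples, since same-numbered arrays correlated by 0.63, -0.14 and 0.37, and with the number as a replicate block 2984 rose, 3180 fell and 2 cytoskeleton genes fell. Tubb3 turned sign, at -0.00653 with scaling to the 75th percentile and between -0.0327 and 0.0914 with an array left out, and Tpm3 was at 1.73 as the mean over its probes. Taking the mean over the tested probes of a gene in place of its brightest one moved 52 of the called named genes by more than the spread between arrays, left 29 within it and turned the sign of 1. Chrng went from 5.85 to 3.54, Ttn from 4.59 to 2.53, Myog from 3.96 to 2.54, Mbp from -3.43 to -1.92, Mapt from 2.11 to 0.86, Scn3b from 2.48 to 1.42, Nfib from 1.71 to 0.86 and Ctsa from 1.25 to 0.51. Dim genes are limited by the offset and the background, and no setting measures the spread between cultures.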

Other observations

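Genes of the Y chromosome were looked at after the values of the whole table had been seen. Eif2s3y averaged 10.63 in control ES cells, 6.86 in control SNMs and 4.40 at the control neuronal stage, where 0 of 3 arrays detected it, at least 4.46-fold below the SNM stage. In knockdown cells it averaged 8.99 in SNMs and 4.78 at the neuronal stage. Ddx3y averaged 10.72 in control ES cells, 8.97 in control SNMs and 8.54 at the control neuronal stage, and its change between the last pair was not called. Kdm5d was detected on 3 of 3 control ES arrays (mean 6.24) and on 0 of 3 arrays of both later stages. Uty was detected on 3 of 3 control ES arrays (mean 5.34), 2 of 3 SNM arrays and 1 of 3 neuronal arrays. Xist was detected on 0 of 3 control arrays at every stage.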
